A study of Homo sapiens and Mus musculus with 28 samples.

Results

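The heat shock chaperones described here are 10 genes, HSPA6, HSPA1A, HSPA1B, HSPA8, DNAJB1, HSPH1, HSP90AA1, HSPB1, BAG3 and HSPE1, out of 35135 gene IDs counted in SCC1, an established human head and neck squamous cell carcinoma (HNSCC) cell line. Each was taken by its exact symbol, and each matched 1 ID. The set was built around HSPA6, whose level in earlier results of R4KO_2 and iR4 cells led to its choice, so the members' values in those libraries, and in the inhibitor comparisons made against them, are given as a description: no p-value is printed for them, and counts of calls there are read for nothing. The study sequenced polyadenylated RNA from HNSCC cells and tumors with and without REXO4, an exonuclease that acts on RNA. Its 24 SCC1 libraries fall into 8 groups of 3. The knockout experiment holds 15 libraries. Its vehicle-treated groups are Ctrl Vehicle, the control cells, and 2 REXO4 knockouts named R4KO_1 and R4KO_2, and its inhibitor groups are KO_2 cells given either H151 or BX_795. H151 and BX_795 are read here as H-151, which blocks the DNA-sensing adaptor STING, and BX-795, which blocks TBK1, a kinase downstream of STING, along with other kinases. The remaining 9 libraries are Vehicle, iR4 and H151_iR4, called the iR4 experiment here. The labels spell out neither iR4 nor the vehicle, and they state no dose, no time, no clone and no culture behind a replicate, so p-values may measure only technical spread.

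Heat shock proteins are chaperones that bind unfolded protein and keep it from aggregating. HSP70 proteins (the HSPA genes) take clients from J-domain partners such as DNAJB1, which stimulate their ATPase, and exchange factors such as HSPH1 and BAG3 release the nucleotide so that the client can leave. When unfolded protein builds up, the transcription factor HSF1 forms trimers and binds heat shock elements, which are inverted repeats of the unit NGAAN, in front of the inducible genes. HSPA6 is a strictly inducible HSP70 of humans that most unstressed cells hold at a very low level. HSPA8 is the constitutive HSP70.

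Sequences upstream of the members are shown because heat shock elements are where HSF1 is known to bind. Sequence is from RefSeq promoter windows (build GRCh38.p14), and all 10 members were found there, with 13 listed start sites. Capitals mark GAANNTTC (2 units head to head) and TTCNNGAA (2 units tail to tail). Both read the same on either strand, and neighbouring pairs can share a unit and then form a run of 3. The first line is the whole window of 250 bases before the HSPA6 start, on the plus strand at chr1:161524290-161524539. The second is 171 bases upstream of HSPA1A, on the plus strand at chr6:31815293-31815463.
HSPA6: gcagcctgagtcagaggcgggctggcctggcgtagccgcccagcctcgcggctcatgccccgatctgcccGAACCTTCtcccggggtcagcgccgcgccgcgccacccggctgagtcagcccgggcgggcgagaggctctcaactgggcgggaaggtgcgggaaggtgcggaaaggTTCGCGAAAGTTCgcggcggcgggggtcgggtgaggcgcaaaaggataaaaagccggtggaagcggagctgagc
HSPA1A: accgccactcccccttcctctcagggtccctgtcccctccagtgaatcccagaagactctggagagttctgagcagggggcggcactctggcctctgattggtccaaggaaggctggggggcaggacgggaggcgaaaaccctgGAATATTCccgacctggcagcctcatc
The other members with a match are shown as stretches of 30 bases around it. They lie at chr6:31827622-31827651 for HSPA1B and chr7:76302480-76302509 for HSPB1, both on the plus strand. On the minus strand lie the stretches of DNAJB1 (the second of 3 listed starts; chr19:14518456-14518485 and chr19:14518426-14518455), HSP90AA1 (the second of 2 listed starts; chr14:102087104-102087133) and HSPA8 (chr11:123062345-123062374 and chr11:123062170-123062199).
HSPA1B: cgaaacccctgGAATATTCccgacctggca
DNAJB1, distal: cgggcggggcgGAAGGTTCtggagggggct
DNAJB1, proximal: ggcgggctctgGAAGCTTCcgccggacggg
HSPB1: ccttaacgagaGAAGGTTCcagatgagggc
HSP90AA1: cTTCCGGAAGGTTCgggaggcTTCTGGAAa
HSPA8, distal: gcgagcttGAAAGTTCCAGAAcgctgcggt
HSPA8, proximal: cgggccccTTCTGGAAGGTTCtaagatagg

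Of the 10 members, 7 held at least 1 pair, at 7 of the 13 start sites, whereas 11.6% of the 35116 RefSeq windows of the same length held one. GAANNTTC alone was in 5.78% of all windows and TTCNNGAA in 6.62%. A run of 3 units, which is GAANNTTC followed by NNGAA or TTCNNGAA followed by NNTTC, was found in front of HSPA6, HSPA8 and HSP90AA1 and in 0.441% of all windows. In HSPA6 the run lies between positions -74 and -62 from the start, and a separate pair lies at -180 to -173. The single pairs of HSPA1A and HSPA1B begin at -106 and -105, in nearly the same sequence. No match was found in these windows for HSPH1, BAG3 and HSPE1, which says only that these letters are absent there. A match is a description of the sequence, not a measured binding site: the inducible HSPA6 and the constitutive HSPA8 both carry a run of 3.

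**Figure D1:**
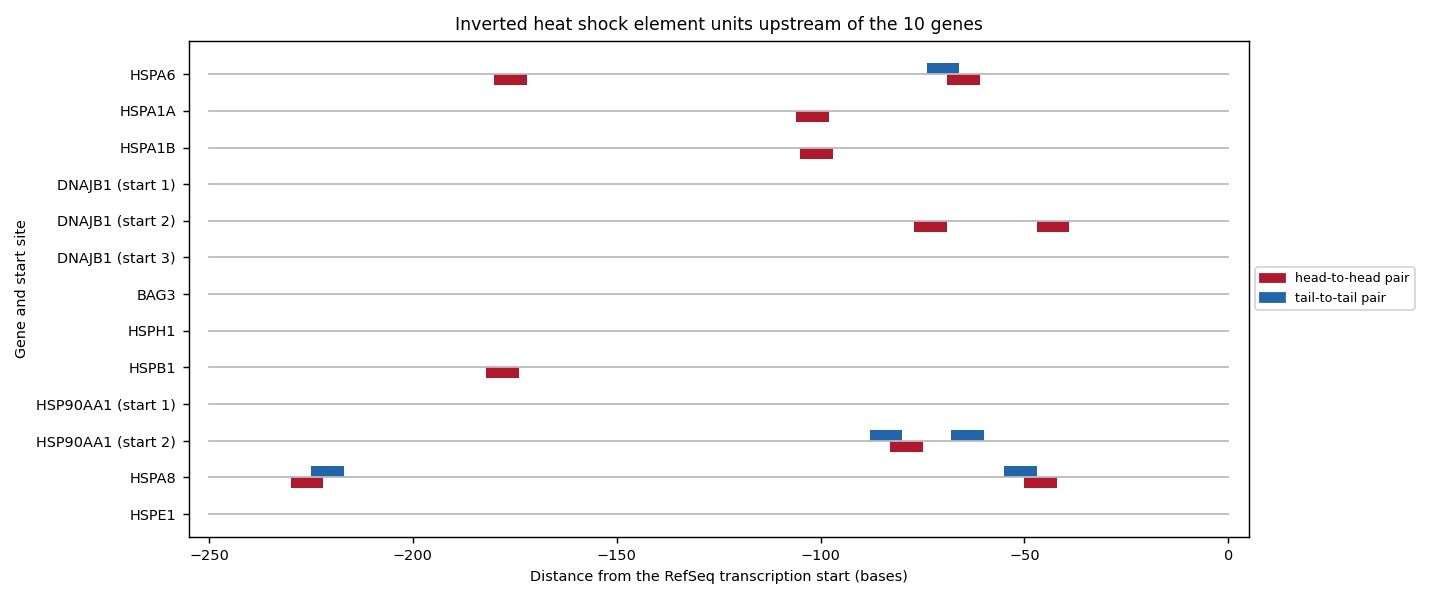
Positions of the 2 kinds of heat shock element pair in the 250 bases before each of the 13 RefSeq starts of the 10 genes, in bases from the start (red, head to head; blue, tail to tail). HSPA6, HSPA8 and HSP90AA1 show overlapping pairs, and HSPH1, BAG3 and HSPE1 show none.

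Several facts about the libraries bear on all values below. Depth ran from 16.04 to 27.94 M counts, with the KO_2 H151 and KO_2 BX_795 libraries at 21.36 to 27.94 M and R4KO_2 Vehicle at 17.53 to 17.67 M. REXO4 stood at 73.9 ± 3.19 CPM (counts scaled to library size, with TMM factors over the 24 libraries; mean ± SD, n = 3) in the Ctrl Vehicle libraries, against 9.38 ± 0.341 for R4KO_1 and 6.29 ± 1.17 for R4KO_2. It was 17.9 ± 1.53 CPM in KO_2 H151, 18.9 ± 0.440 in KO_2 BX_795, 96.1 ± 3.52 in Vehicle, 61.4 ± 2.88 in iR4 and 91.5 ± 2.28 in H151_iR4. The drug-treated KO_2 libraries also went against their label in part, in 28 genes picked as high in R4KO_1 only among the vehicle-treated groups. The median log2 CPM of these genes was -2.25 in R4KO_2, 0.62 in R4KO_1 and -2.06 in Ctrl Vehicle. With H151 and BX_795 it was 0.77 and 0.83, and in Vehicle, iR4 and H151_iR4 it was -0.93, -0.82 and -0.94. Whether the drugs raised these genes was not tested. Drug and knockout line therefore cannot be told apart in any comparison of the drug-treated KO_2 libraries with R4KO_2. R4KO_1 replicate 3 stood apart from replicate 1 of its group, with a chi-square of 10.4 per degree of freedom where no other pair of replicates went above 4.89. That replicate 3 held the highest value of its group for 9 of the 10 members, and its share over all genes is not given here. The 7 squamous markers summed to 1539 to 3821 CPM over the libraries, with 3489 to 3821 in Ctrl Vehicle, 2077 to 2439 in R4KO_1 and 2344 to 2409 in R4KO_2. The 4 fibroblast markers also moved with the groups: they summed to 23.1 to 23.7 CPM in Ctrl Vehicle, 35.6 to 39.9 in R4KO_1, 33.0 to 36.3 in R4KO_2, 37.0 to 38.8 in KO_2 H151 and 45.3 to 47.1 in KO_2 BX_795. In the iR4 experiment they summed to 21.3 to 24.5 CPM in Vehicle, 32.9 to 38.5 in iR4 and 24.6 to 26.5 in H151_iR4. COL1A2 and DCN were at or below 1 CPM in every library, so COL1A1 and COL3A1 made up nearly all of these sums. The part of the marker shifts in the results was not tested. The 3 endothelial markers summed to 0.340 to 2.05 CPM, with CDH5 and PECAM1 at or below 1 everywhere and VWF reaching 1 in at least 1 library of R4KO_1 and of R4KO_2, and all 3 leukocyte markers were at or below 1 CPM.

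In control cells the members covered a wide span of levels. On the scale of CPM per kilobase of annotated exon, HSP90AA1, the inducible form of cytosolic HSP90, stood highest in Ctrl Vehicle at 1023 ± 56.9 (SD, n = 3), followed by HSPA8 at 643 ± 4.43 and the small heat shock protein HSPB1 at 455 ± 38.0. HSPA1A followed at 115 ± 8.54. HSPH1 (88.9 ± 3.60), DNAJB1 (86.8 ± 3.31) and HSPA1B (82.8 ± 7.03) came next, and these 3 neighbours did not differ beyond their spread. HSPE1, the mitochondrial co-chaperonin, was at 57.5 ± 3.07 and BAG3 at 42.6 ± 2.50. HSPA6 was last at 0.574 ± 0.0487. The order was different in iR4 cells, where HSP90AA1 (1023 ± 44.8) and HSPA1A (996 ± 227) overlapped at the top and HSPA6 reached 37.9 ± 13.5, the lowest mean of the 10 but not beyond its spread from HSPE1 (49.1 ± 2.16). Exon lengths join all annotated exons of a gene, so the per-kilobase level of a gene with many long transcripts is understated. All 10 members passed the filter on low counts in every fit. Non-overlap of groups was common over all tested genes: 64.4% for R4KO_1 and 69.1% for R4KO_2 against Ctrl Vehicle, and 41.6% between the 2 knockouts. It was 73.8% for iR4 against Vehicle and 73.1% for H151_iR4 against iR4. Against R4KO_2 it was 76.6% for KO_2 H151 and 77.1% for KO_2 BX_795. A group lying wholly above or below another is therefore not unusual by itself.

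**Figure D2:**
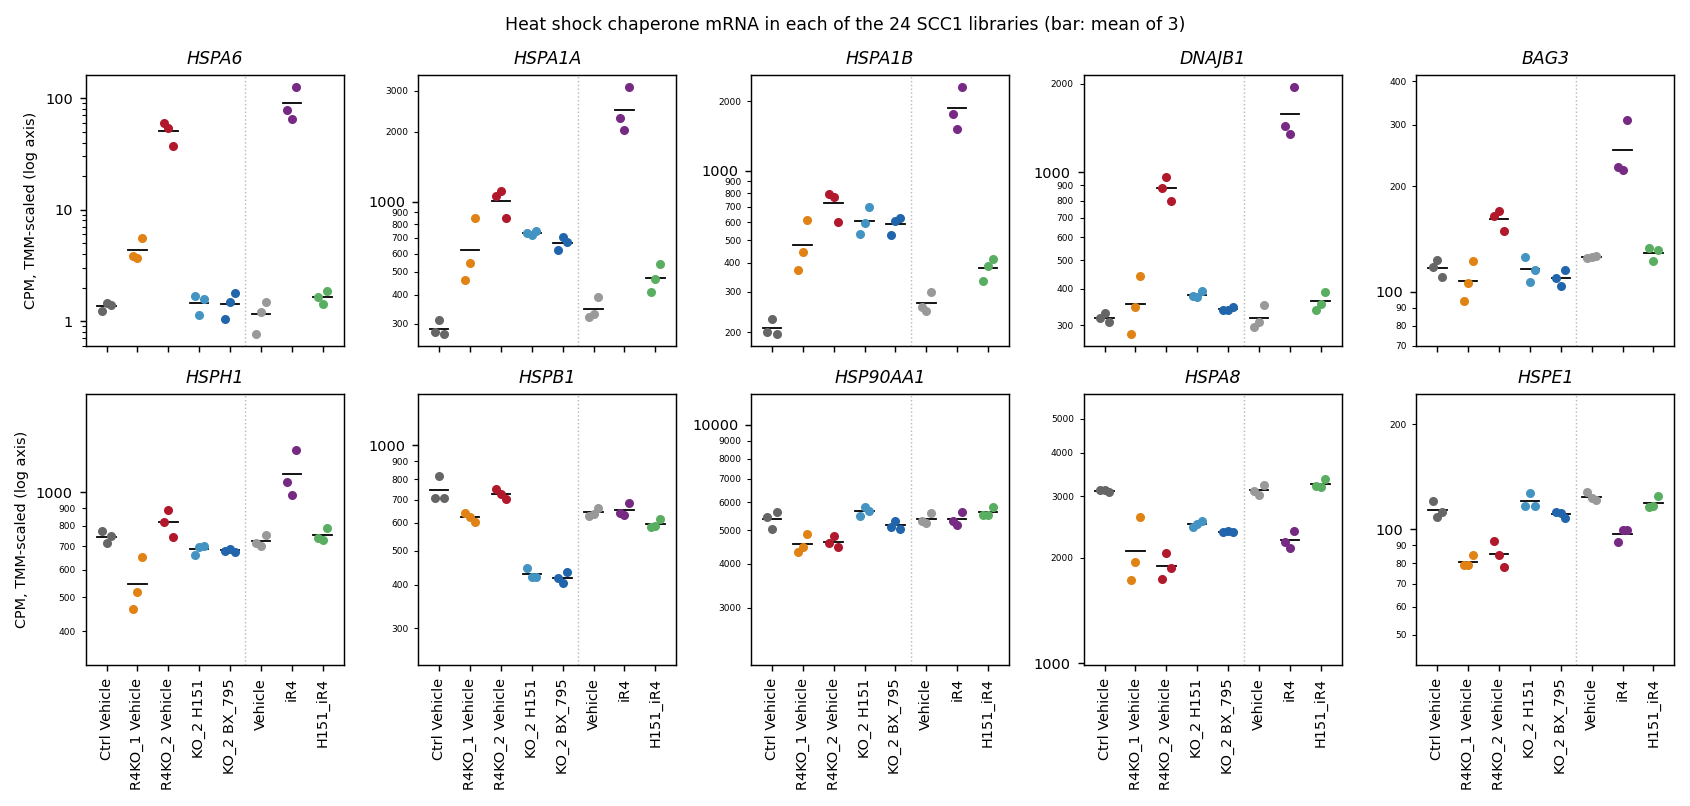
Level of each of the 10 genes in each of the 24 SCC1 libraries, as TMM-scaled CPM on a log axis, with 3 libraries (points) and their mean (bar) in each of 8 groups. HSPA6, HSPA1A, HSPA1B and DNAJB1 stand highest in iR4, while HSPA8 and HSPE1 are lower in R4KO_1, R4KO_2 and iR4 than in the untreated groups.

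HSPA6 (ENSG00000173110, chromosome 1 from 161524540 to 161526910, plus strand, GRCh38) was close to silent in 5 of the 8 groups. The 3 Ctrl Vehicle libraries held it at 1.23, 1.45 and 1.40 CPM and the 3 Vehicle libraries at 0.765, 1.22 and 1.48. In R4KO_1 it was at 3.80, 3.68 and 5.55 CPM, in R4KO_2 at 60.02, 54.5 and 37.5, and in iR4 at 78.1, 65.2 and 126. Each of these 3 groups lay wholly above its untreated group, and R4KO_2 wholly above R4KO_1. In such bulk samples, fewer expressing cells and less RNA per cell cannot be told apart. In KO_2 H151 it was at 1.67, 1.14 and 1.58 CPM, in KO_2 BX_795 at 1.05, 1.48 and 1.79, and in H151_iR4 at 1.64, 1.43 and 1.87. These 3 groups overlapped the untreated ones, although REXO4 transcript in the KO_2 ones was still far below the control level. The mean was 37.2-fold higher in R4KO_2 than in Ctrl Vehicle (log2 fold change 5.21, SE 0.20) and 77.8-fold higher in iR4 than in Vehicle (6.27, SE 0.26). It was 34.6-fold lower in KO_2 H151 and 35.2-fold lower in KO_2 BX_795 than in R4KO_2, and 54.5-fold lower in H151_iR4 than in iR4. In R4KO_1 against Ctrl Vehicle, HSPA6 rose by 1.67 on the log2 scale (SE 0.30, edgeR adjusted p = 4.22e-05), or 3.19-fold. That comparison was not used to choose the set, but both of its groups were also compared with R4KO_2, where HSPA6 was already known. Its p-value is therefore not independent of the choice. Untreated cells had 68 to 70 counts of HSPA6 per group, so its low levels rest on few reads.

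HSPA6 shares 27.6% of its 100-base transcript windows with HSPA7, a pseudogene on the same chromosome, and the treatment of reads that fit both is not stated in the sources used here. HSPA7 itself held 1 count in all of Ctrl Vehicle, 21 in R4KO_2 and 49 in iR4, against 70, 2899 and 5814 for HSPA6. HSPA7 was thus at most a small fraction of HSPA6 in each of these groups.

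HSPA1A (ENSG00000204389, chromosome 6 from 31815464 to 31817946, plus strand) and HSPA1B (ENSG00000204388, chromosome 6 from 31827735 to 31830255, plus strand) encode nearly the same major stress-inducible HSP70. Their transcripts share 67.3% and 72.7% of their windows with other genes, mostly each other, so the split between them is uncertain and their sum is given first. AL671762.1, which overlaps HSPA1B exons on the same strand, shares 29.4% of the HSPA1A windows and 33.9% of the HSPA1B windows. The sum does not remove that uncertainty. The sum was 478, 539 and 467 CPM in Ctrl Vehicle, 835.5, 989 and 1465 in R4KO_1, and 1853, 1888 and 1452 in R4KO_2. Both knockouts lay wholly above the control, and they overlapped each other through R4KO_1 replicate 3 and R4KO_2 replicate 3. In the iR4 experiment the sum was 577, 577 and 690 CPM in Vehicle, 4048, 3545 and 5421 in iR4, and 745, 852 and 953 in H151_iR4. All 3 iR4 libraries stood far above the rest, a mean 7.06-fold over Vehicle. In KO_2 H151 the sum was 1267, 1311 and 1447 CPM and in KO_2 BX_795 1149, 1309 and 1300. Unlike HSPA6, the pair therefore lay well above Ctrl Vehicle in the drug-treated KO_2 libraries, within the range of R4KO_1.

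Taken singly, both genes rose in R4KO_1, HSPA1A by 1.13 on the log2 scale (SE 0.14, edgeR adjusted p = 2.68e-07) and HSPA1B by 1.20 (SE 0.13, adjusted p = 5.84e-08). Without R4KO_1 replicate 3, where HSPA1A was at 855 CPM against 463 and 544, the values were 0.83 and 0.98. In R4KO_2 the log2 fold changes were 1.82 and 1.80, and in iR4 they were 2.84 and 2.80.

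DNAJB1 (ENSG00000132002, chromosome 19 from 14514770 to 14529770, minus strand), the J-domain partner of the inducible HSP70s, had a pattern close to that of HSPA6 on a smaller scale. It was at 318, 332 and 307 CPM in Ctrl Vehicle, 280, 345 and 442 in R4KO_1, and 880, 965 and 796 in R4KO_2. R4KO_1 lay on both sides of the control, whereas R4KO_2 was wholly above both groups. Its R4KO_1 log2 fold change was 0.17 (95% interval -0.02 to 0.35, edgeR adjusted p = 0.13). It was -0.02 without R4KO_1 replicate 3, and 0.31 without R4KO_1 replicate 1 (edgeR adjusted p = 2.71e-04). In Vehicle it was at 296, 309 and 352 CPM, in iR4 at 1440, 1349 and 1952, and in H151_iR4 at 340, 356 and 390. In the KO_2 cells it stood at 378, 374 and 393 CPM with H151 and at 339, 337 and 347 with BX_795. Every drug-treated library was thus far below R4KO_2 or iR4. The means were 2.76-fold higher in R4KO_2 than in Ctrl Vehicle and 4.96-fold higher in iR4 than in Vehicle. TECR and MIR639 overlap DNAJB1 on the other strand, and whether counting used strand is not stated in the sources used here.

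BAG3 and HSPH1, the exchange factors, moved less. BAG3 (ENSG00000151929, chromosome 10 from 119651370 to 119677819) links HSP70 to small heat shock proteins and selective autophagy. It was at 118, 124 and 110 CPM in Ctrl Vehicle, 94.1, 106 and 123 in R4KO_1, and 165, 171 and 149 in R4KO_2. Only R4KO_2 of these was clear of the control, by a mean 1.38-fold. Without R4KO_1 replicate 3, BAG3 fell by 0.22 in R4KO_1 (edgeR adjusted p = 0.00492), where all 3 libraries gave -0.11 (adjusted p = 0.19). In Vehicle, iR4 and H151_iR4 it was at 125, 126 and 126, at 228, 223 and 310, and at 133, 122 and 132 CPM, which sets all 3 iR4 libraries above the others. HSPH1 (ENSG00000120694, chromosome 13 from 31134974 to 31162388), an HSP110 that also works in disaggregation, was at 774, 714 and 750 CPM in Ctrl Vehicle, 462, 517 and 653 in R4KO_1, and 821, 890 and 745 in R4KO_2. R4KO_1 was wholly below the control and R4KO_2 overlapped it. In R4KO_1 HSPH1 fell by 0.45 on the log2 scale (SE 0.08, edgeR adjusted p = 3.86e-05). It was at 715, 701 and 755 CPM in Vehicle, 1070, 982 and 1322 in iR4, and 738, 731 and 791 in H151_iR4, with iR4 again above both. The iR4 difference was 1.55-fold for HSPH1 and 2.02-fold for BAG3.

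HSPB1 (ENSG00000106211, chromosome 7 from 76302544 to 76304295) encodes HSP27, which holds unfolded clients without ATP. HSPB1 did not rise with HSPA6 in R4KO_2 or iR4 over their untreated groups. It was at 708, 815 and 707 CPM in Ctrl Vehicle, 751, 728 and 703 in R4KO_2, and 640, 626 and 606 in R4KO_1. R4KO_2 overlapped the control and lay wholly above R4KO_1. R4KO_1 lay below the control, and HSPB1 fell there by 0.24 on the log2 scale (SE 0.05, edgeR adjusted p = 8.50e-05). The lowest values of all 24 libraries were in the drug-treated KO_2 cells, at 446, 419 and 421 CPM with H151 and 416, 405 and 433 with BX_795. Against Ctrl Vehicle it fell there by 0.80 and by 0.84 (both SE 0.05, adjusted p = 4.84e-12 and 2.21e-12 by edgeR). Vehicle (629, 638 and 663 CPM) and iR4 (642, 630 and 686) overlapped, and H151_iR4 (583, 589 and 615) lay just under them.

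HSP90AA1, HSPA8 and HSPE1 were level or lower where HSPA6 was high. HSPA8 (ENSG00000109971, chromosome 11 from 123057489 to 123063230), the housekeeping HSP70, was at 3131, 3125 and 3092 CPM in Ctrl Vehicle, 1729, 1951 and 2618 in R4KO_1, and 1745, 2072 and 1871 in R4KO_2. All 6 knockout libraries lay below all 3 control libraries. In R4KO_1 it fell by 0.56 on the log2 scale (SE 0.09, edgeR adjusted p = 7.83e-06). In Vehicle it was at 3118, 3027 and 3232 CPM, in iR4 at 2225, 2138 and 2390, and in H151_iR4 at 3216, 3184 and 3365. The iR4 libraries were thus the low ones, and H151_iR4 overlapped Vehicle. KO_2 H151 (2446, 2497 and 2558 CPM) and KO_2 BX_795 (2368, 2387 and 2380) lay between R4KO_2 and the control.

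HSPE1 (ENSG00000115541, chromosome 2 from 197499994 to 197503457) was at 120, 109 and 112 CPM in Ctrl Vehicle, 79.0, 79.3 and 84.4 in R4KO_1, and 92.7, 84.4 and 78.0 in R4KO_2. Both knockouts were clear of the control, and in R4KO_1 HSPE1 fell by 0.48 on the log2 scale (SE 0.06, edgeR adjusted p = 1.50e-07). It was at 92.2, 99.5 and 99.8 CPM in iR4 against 128, 123 and 121 in Vehicle. HSPE1 overlaps the readthrough gene HSPE1-MOB4, which had at most 13 counts in any group, and on the other strand HSPD1. HSP90AA1 (ENSG00000080824, chromosome 14 from 102080738 to 102139699) was at 5442, 5043 and 5627 CPM in Ctrl Vehicle and ran from 4332 to 4875 in the 6 knockout libraries. It was at 5306, 5251 and 5592 CPM in Vehicle and 5317, 5168 and 5628 in iR4, groups that overlapped almost completely. In R4KO_1 it fell by 0.23 on the log2 scale (SE 0.04, edgeR adjusted p = 8.67e-05). WDR20 overlaps HSP90AA1 on the other strand.

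**Figure D3:**
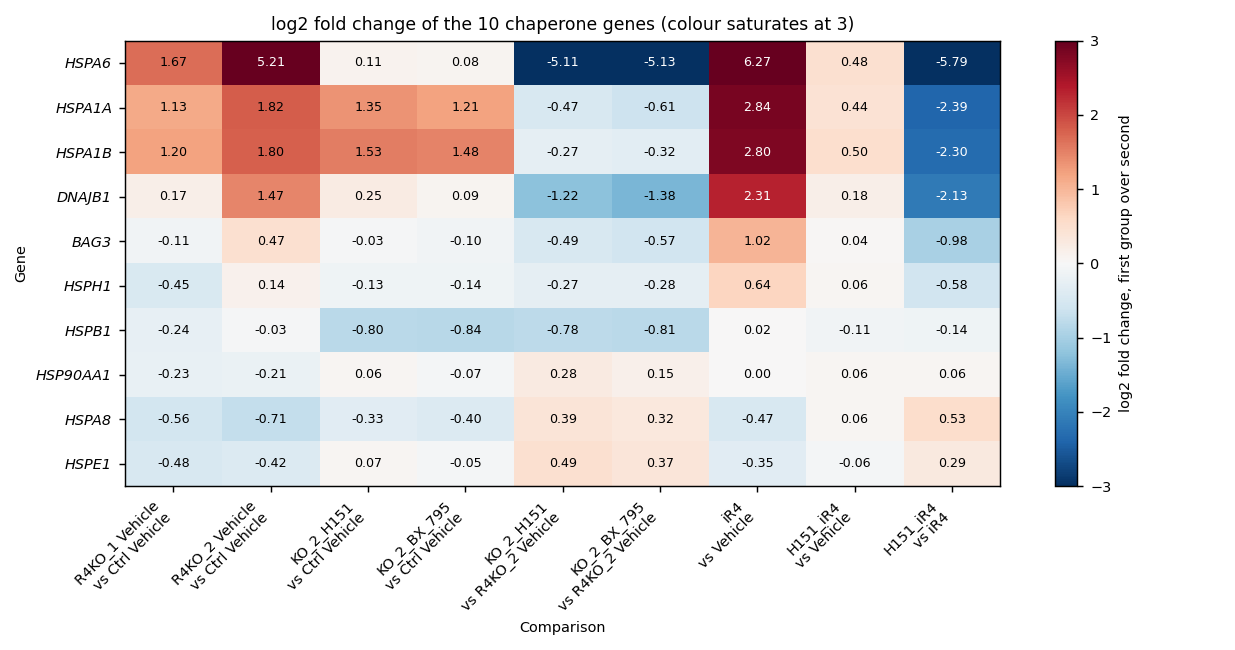
Log2 fold change of the 10 genes (rows) in 9 comparisons (columns), first group over second, with colour saturating at 3. HSPA6 runs from -5.79 to 6.27, while HSP90AA1 stays between -0.23 and 0.28.

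Counts over the set have to be read against a very broad background. In R4KO_1 against Ctrl Vehicle, 3 of 10 members rose and 5 fell by edgeR, where 64.5% of 14348 tested genes were called (adjusted p under 0.05). With 8 of 10 members called, the count alone sets them little apart from that background. By 2-fold or more, HSPA6, HSPA1A and HSPA1B rose, against 7.57% of all genes. Without R4KO_1 replicate 3, HSPA1A (0.83) and HSPA1B (0.98) were under 2-fold, which leaves HSPA6 (1.46). The median log2 fold change of the members was -0.17, and that of all genes 0.02. In R4KO_2, 5 members were called higher and 3 lower (66.2% of genes called), with a median of 0.30. In iR4, 6 were called higher and 2 lower of 10 (71.9% of 14000 genes called), with a median of 0.83 against 0.02 over all genes. The 6 higher ones were HSPA6, HSPA1A, HSPA1B, DNAJB1, BAG3 and HSPH1. R4KO_2 stood above R4KO_1 for 7 members called (15.1% of genes called higher, 31.6% called in either direction). Among these members were HSPA6 by 3.54, DNAJB1 by 1.30, and HSPH1 and BAG3 by 0.58 each. From these last 3 comparisons nothing is read, since HSPA6 was chosen on them. R4KO_1 and R4KO_2 share the control libraries.

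Under the inhibitors the members were placed against untreated cells, a comparison that HSPA6 was not itself chosen on. Both sides did take part in comparisons where HSPA6 was already known, here and for H151_iR4 against Vehicle. The HSPA6 values against untreated cells are therefore not independent of its choice. In KO_2 H151 against Ctrl Vehicle, 3 members rose and 2 fell by edgeR (53.0% of genes called). HSPA6 differed from the control by 0.11 on the log2 scale, with a 95% interval of -0.60 to 0.81 (edgeR adjusted p = 0.826). HSPA1A rose by 1.35 (SE 0.14, adjusted p = 4.18e-08) and HSPA1B by 1.53 (SE 0.13, adjusted p = 3.19e-09). DNAJB1 rose by 0.25 (SE 0.09, edgeR adjusted p = 0.0319), a call that DESeq2 did not make (adjusted p = 0.102) and that edgeR lost without Ctrl Vehicle replicate 1 or 3 or any 1 of the 3 KO_2 H151 libraries (adjusted p = 0.0526 to 0.0993). HSPA8 fell by 0.33 and HSPB1 fell by 0.80. The inducible HSP70 genes thus parted: HSPA6 overlapped the control, and HSPA1A and HSPA1B lay above it. R4KO_1 had 1.13 and 1.20 for HSPA1A and HSPA1B (0.83 and 0.98 without its replicate 3), and the difference between R4KO_1 and KO_2 H151 was not tested. The 28 genes picked as high in R4KO_1 were also high in the KO_2 H151 libraries. The part of the knockout line in the HSPA1A and HSPA1B levels was not tested.

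In KO_2 BX_795 against Ctrl Vehicle, 2 members rose and 2 fell (55.7% of genes called). HSPA6 differed by 0.08 (95% interval -0.62 to 0.78, edgeR adjusted p = 0.866), HSPA1A rose by 1.21 and HSPA1B by 1.48. The 2 inhibitors were then set beside each other, although the labels give no dose for either. Of the 10 members, edgeR called none between KO_2 BX_795 and KO_2 H151 (9.67% of genes called) and DESeq2 none either, while 2 passed an unadjusted p of 0.05. For HSPA6 the difference was -0.03 with a 95% interval of -0.66 to 0.61, and for DNAJB1 -0.16 with an interval of -0.34 to 0.02. The interval for HSPA1A ran from -0.40 to 0.12. When only the 6 libraries compared were fitted, 4 members were called lower with BX_795, namely HSPA1A, DNAJB1, HSP90AA1 and HSPE1, by 0.12 to 0.16 on the log2 scale. The shares of all genes under that fit and under the unadjusted rule are not given here. Neither count is therefore read as a result about the members.

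Against R4KO_2, 6 members were called lower and 3 higher in KO_2 H151 (72.7% of genes called), and 7 lower and 3 higher in KO_2 BX_795 (73.6%). HSPA6 had log2 fold changes of -5.11 and -5.13 and DNAJB1 of -1.22 and -1.38. HSPA1A was at -0.47 and -0.61. In H151_iR4 against iR4, 7 members were called lower and 2 higher (71.4%), with HSPA6 at -5.79, HSPA1A at -2.39, HSPA1B at -2.30, DNAJB1 at -2.13 and BAG3 at -0.98. These values are a description.

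H151_iR4 cells were close to Vehicle cells for most members. By edgeR 2 members rose and 1 fell (18.3% of genes called). HSPA1A rose by 0.44 (SE 0.10, edgeR adjusted p = 0.00314; DESeq2 adjusted p = 0.115) and HSPA1B by 0.50 (SE 0.10, edgeR adjusted p = 6.02e-04). HSPB1 fell by 0.11 (edgeR adjusted p = 0.0301), a call lost without H151_iR4 replicate 1 or 2 or Vehicle replicate 2 or 3. HSPA6 differed by 0.48 with a 95% interval of -0.69 to 1.65 (edgeR adjusted p = 0.64), an interval that spans a fall, no change and a clear rise. Whether H151 cells stood at different distances from their own untreated group in the 2 experiments was tested in 1 fit of all 24 libraries. By edgeR 2 members passed in each direction (40.8% of genes called): HSPA1A by -0.92 (SE 0.21, adjusted p = 7.02e-04), HSPA1B by -1.04 (adjusted p = 8.67e-05), HSPA8 by 0.38 (adjusted p = 0.00699) and HSPB1 by 0.68 (adjusted p = 5.26e-10). HSPA6 did not (0.37, SE 0.79, edgeR adjusted p = 0.749). The untreated groups themselves differed, with HSPA1B and HSPE1 higher and HSPB1 lower in Vehicle than in Ctrl Vehicle (51.5% of genes called), and experiment and group cannot be told apart there. Without any 1 of the 6 libraries of that comparison, at most 1 of the 2 higher calls was left.

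Across the 24 libraries DNAJB1 was the member most like HSPA6, with a Pearson r of 0.95 on log2 CPM. BAG3 followed at 0.85, HSPA1A at 0.84, HSPA1B at 0.79, HSPH1 at 0.64 and HSPB1 at 0.43. Spearman's rho gave another order, with DNAJB1 and HSPA1A both at 0.75, HSPA1B at 0.73 and BAG3 at 0.58. Within the 15 libraries of the knockout experiment, Pearson's r for HSPB1 (0.54) was above that for HSPA1B (0.49) and HSPH1 (0.35). By r over the 24 libraries, HSP90AA1 (-0.36), HSPA8 (-0.63) and HSPE1 (-0.66) ran the other way. The libraries share groups, so these are descriptions of 8 groups more than of 24 points. Among 10961 other genes the 6 most like HSPA6 were RNF19A (0.982), MAP1LC3B (0.978), NOCT (0.970), USP53 (0.967), E2F7 (0.962) and BMP2K (0.962). MAP1LC3B, which encodes an LC3 protein of the autophagosome, went from 106 ± 2.44 CPM in Ctrl Vehicle to 192 ± 7.37 in R4KO_2 and from 104 ± 1.31 in Vehicle to 222 ± 10.5 in iR4. E2F7, a repressor of the E2F family, went from 77.0 ± 2.92 to 147 ± 3.53 and from 62.5 ± 0.360 to 219 ± 34.2 CPM. By rank the likeness was looser. Spearman's rho ran from 0.65 to 0.84 for these 6 genes, which placed them from rank 39 (MAP1LC3B) to rank 1376 (USP53), and 0 of the 6 were among the first 6. HSPA6 was high in the R4KO_2 and iR4 libraries, on which it was chosen, and the part of those libraries in the order by r was not tested.

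**Figure D4:**
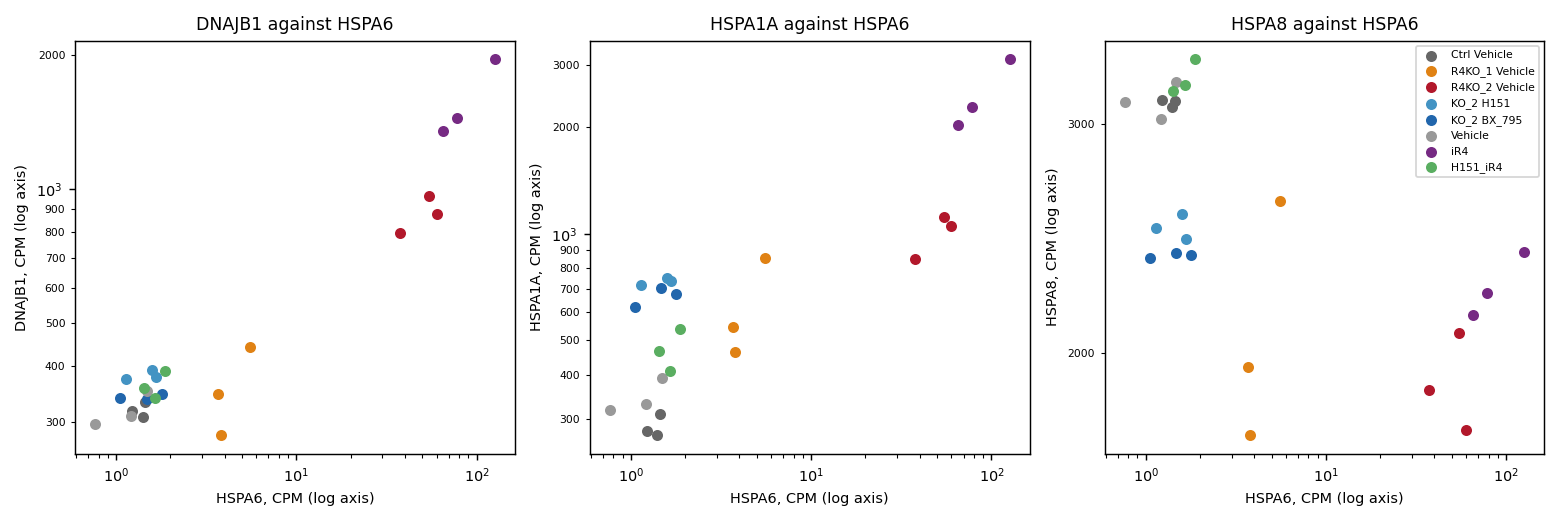
DNAJB1, HSPA1A and HSPA8 (y axes, CPM, log) against HSPA6 (x axis, CPM, log) in the 24 SCC1 libraries, coloured by group. The 6 R4KO_2 and iR4 libraries lie apart at 37.5 CPM of HSPA6 or more, and the drug-treated KO_2 libraries hold HSPA1A at 621 to 749 CPM with HSPA6 below 2 CPM.

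Other genes of the heat shock response were taken as a list of 21 chaperones and co-chaperones known to be HSF1 targets, all of them tested. In R4KO_1, 5 rose and 10 fell by edgeR, where 33.0% of all genes were higher and 31.4% lower, with a median log2 fold change of -0.17. HSP90AB1, the constitutive cytosolic HSP90, fell by 0.88 (SE 0.03, edgeR adjusted p = 1.43e-15) from 4024 ± 28.9 to 2169 ± 78.3 CPM. HSPD1, the mitochondrial chaperonin that works with HSPE1, fell by 0.58, AHSA1, an HSP90 activator, fell by 0.53, and PTGES3, the HSP90 co-chaperone p23, fell by 0.50. In R4KO_2, 10 rose and 8 fell (34.0% and 32.2% of all genes), with a median of 0.03. DNAJB4, another J-domain protein, rose there by 0.87 (SE 0.05, edgeR adjusted p = 2.06e-12), while HSP90AB1 fell by 0.88, HSPD1 fell by 0.58 and PTGES3 fell by 0.53. Compared with R4KO_1, 10 of its genes were higher in R4KO_2 and the other 11 were not called (15.1% of all genes higher), among them ZFAND2A by 0.86, HSPA1L by 0.73, DNAJB4 by 0.50 and AHSA1 by 0.24.

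In iR4, 13 of the 21 rose and 7 fell (37.1% and 34.8% of all genes), with a median of 0.37. DEDD2 rose by 1.24 (SE 0.08, edgeR adjusted p = 2.22e-13) and the small heat shock protein HSPB8 by 0.78, while HSP90AB1 fell by 0.80. With H151 on top, 13 fell and 7 rose (36.3% and 35.1% of all genes): DEDD2 fell by 1.24, while HSP90AB1 rose by 0.75 and PTGES3 by 0.46. In KO_2 H151 against R4KO_2, 10 fell and 9 rose (37.0% and 35.7% of all genes), with DNAJB4 at -0.94 and HSP90AB1 at 0.99. Among the heat shock factors, HSF1 fell in R4KO_1 by 0.27 (SE 0.05, edgeR adjusted p = 6.05e-05), in R4KO_2 by 0.20 (adjusted p = 0.00104) and in iR4 by 0.15 (adjusted p = 6.24e-04). HSF2 was not called in these comparisons, with log2 fold changes of 0.03, 0.08 and -0.03. HSF4, at 4.34 ± 0.409 CPM in Ctrl Vehicle, rose by 0.70, 0.82 and 0.83. HSF1 is regulated mostly at the protein level, which these data do not measure.

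Other chaperone families were counted in the same way, against the shares of all genes called lower (31.4% in R4KO_1, 32.2% in R4KO_2 and 34.8% in iR4). Of 14 subunits of TRiC and prefoldin, which fold actin and tubulin, 11 fell in R4KO_1, 13 in R4KO_2 and 13 in iR4, with medians of -0.39, -0.52 and -0.41. CCT3 fell in R4KO_2 by 0.72 (SE 0.03, edgeR adjusted p = 8.14e-14) and CCT6A fell by 0.67. CCT2 fell in iR4 by 0.65. All 14 rose in KO_2 H151 and in KO_2 BX_795 relative to R4KO_2 (35.7% and 36.4% of all genes higher). Of 13 endoplasmic reticulum chaperones, 12 fell and 1 rose in each knockout, with HSPA5, the HSP70 of that compartment, falling by 0.54 in R4KO_1 (adjusted p = 1.21e-11 by edgeR) and by 0.63 in R4KO_2. In iR4, 11 of them fell and 2 rose; HSP90B1 fell by 0.56. In H151_iR4 against Vehicle 12 of the 13 rose (8.71% of all genes higher), with DNAJB11 up by 0.39 and HSP90B1 by 0.30. The list of 6 mitochondrial chaperones also holds the proteases LONP1 and CLPP. Of its 6 genes, 6 fell in R4KO_1, 5 in R4KO_2 and 5 in iR4, among them GRPEL1 by -0.69, -0.71 and -0.64. Of 6 BAG family and other exchange factors, 3, 4 and 3 fell; BAG1 was at -0.32 in R4KO_1, -0.81 in R4KO_2 and -0.97 in iR4, the opposite sign to BAG3 in the last 2.

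**Figure D5:**
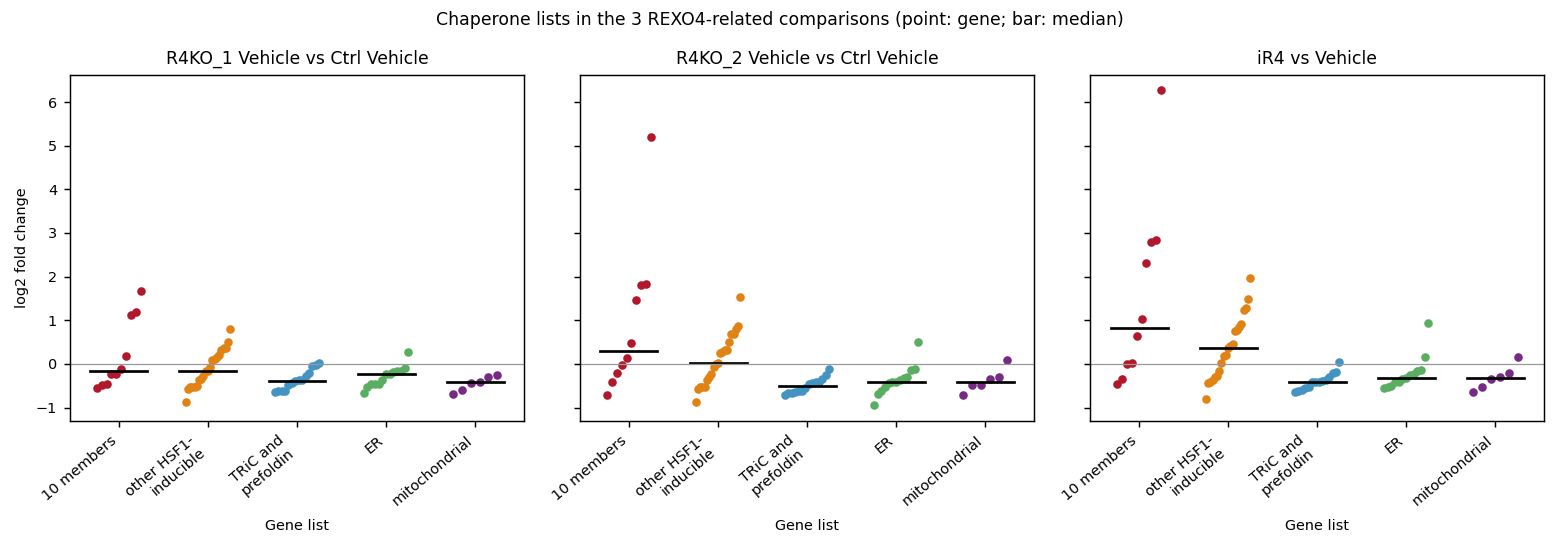
Log2 fold change (y axis) of every gene in 5 chaperone lists (x axis) in R4KO_1 and R4KO_2 against Ctrl Vehicle and in iR4 against Vehicle, with a bar at each list's median. The members and the other HSF1-inducible genes spread to both sides of 0, while the TRiC and prefoldin list has medians of -0.39, -0.52 and -0.41.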

How the data were processed

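Per the labels' protocols, RNA was selected with oligo(dT), reverse transcribed from random hexamers and read on an Illumina instrument. The labels call the molecule genomic DNA, and the values were read as RNA. The authors deposited raw counts per gene, 1 library per file. The submitters' processing notes list HISAT2 2.2.1 and featureCounts 2.0.1, with Trim Galore 0.6.4, and the builds hg38 and mm10. Annotation, strand setting and the treatment of shared reads are not stated in the sources used here. Gene coordinates are those of GENCODE v29 (GRCh38).

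Depth ran from 16.04 to 27.94 M counts, and HSPA6 in untreated cells rests on 68 to 70 counts a group. Counts were tested in R 4.3.3 with edgeR 4.0.16 using TMM factors, filterByExpr at a count of 10 and the quasi-likelihood F test, with p-values adjusted by Benjamini-Hochberg over every tested gene (threshold 0.05). One fit took the knockout experiment (15 libraries), another the iR4 experiment (9), and a fit of all 24 served comparisons between them. Standard errors are the fold change over the root of F, and intervals are 1.96 SE. The scripts were tested on simulated data. Alternatives were DESeq2 1.42.0 in place of edgeR, RLE and upper-quartile factors, no filter, a filter of 1 CPM, other sets of libraries, a replicate block and leaving out each replicate.

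The members and lists were chosen with earlier results of these data known. Named genes are the members, REXO4, HSF1, HSF2, copies of members, up to 4 lowest-p called genes of the HSF1-inducible list and 2 of each other list per comparison, and the 6 genes most like HSPA6. One gene that this rule names is not reported here.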

Additional observations from a re-analysis of the deposited data

Results flagged for a closer look

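For 4 members the distance of H151-treated cells from their untreated group differed between the experiments, by the interaction term of the edgeR fit of 24 libraries. The differences, H151_iR4 minus Vehicle less KO_2 H151 minus Ctrl Vehicle, were -0.92 for HSPA1A, -1.04 for HSPA1B, 0.38 for HSPA8 and 0.68 for HSPB1 on the log2 scale. The transcripts of HSPA1A and HSPA1B share most of their 100-base windows. The KO_2 H151 libraries are from a knockout line and were high for the 28 genes picked as high in R4KO_1. H151_iR4 was set against Vehicle, so drug, line and experiment cannot be told apart in these 4 values.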

How the results depend on the processing

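Of 1850 refits of the members' log2 fold changes, 64 changed a call and 46 changed sign, the latter only for values that had not been called. Replicate numbers paired the libraries in 0 of 12 comparisons (in none did all 3 correlations pass 0.1). The replicate block moved no count by over 1.5 times and turned DNAJB1 in Vehicle against Ctrl Vehicle from 0.000417 to -0.01. The causes of the changes below were not tested. Shares of all genes called under the alternatives are not given here, so the counts below show only how far calls depend on the fit.

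Counts of members called lower between BX_795 and H151 went from 0 to 1 with all 24 libraries, 3 with no filter and 4 with only the 6 libraries compared. In R4KO_2 against R4KO_1, members called lower went from 0 to 1 with no filter, and from 0 to 1 over left-out replicates. In H151_iR4 against Vehicle, members called higher went from 2 to 1 with DESeq2, and members called lower from 1 to 0 with all 24 libraries and to 0 to 1 over left-out replicates. In Vehicle against Ctrl Vehicle, members called higher went from 2 to 1 with DESeq2 and with upper-quartile factors, and to 0 to 1 over left-out replicates.

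With upper-quartile factors, BAG family genes called higher went from 0 to 1 in R4KO_1 and in R4KO_2 and from 4 to 2 in H151_iR4 against iR4, mitochondrial chaperones called higher from 0 to 1 in R4KO_2, and heat shock factors called higher from 2 to 1 in KO_2 H151 against R4KO_2. BAG family genes called lower went from 1 to 2 in KO_2 BX_795 against R4KO_2 with all 24 libraries, only 6 libraries or upper-quartile factors, and from 0 to 1 in KO_2 H151 against R4KO_2 with only 6 libraries. ER chaperones called higher in iR4 went from 2 to 1 with DESeq2. Over left-out replicates these counts ran from 0 to 1 for BAG genes higher in R4KO_1 and lower in KO_2 H151, from 2 to 4 for BAG genes higher in H151_iR4 against iR4, and from 1 to 2 for ER chaperones higher in iR4. They ran from 0 to 1 for mitochondrial chaperones lower under either inhibitor against R4KO_2. Heat shock factors ran from 1 to 2 (higher in R4KO_2 and in KO_2 H151 against R4KO_2, lower in iR4) and from 0 to 1 (higher in H151_iR4 against iR4).

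Signs turned for values that no main fit had called. HSP90AA1 in iR4 was 0.0005633, and -0.01 with DESeq2, RLE factors, no filter or only 6 libraries and -0.003223 with all 24. HSPB1 in R4KO_2 became 0.01 with upper-quartile factors. In Vehicle against Ctrl Vehicle, the filter of 1 CPM gave HSPA8 -0.0004701, DNAJB1 -0.004504 and HSP90AA1 -0.001616, and upper-quartile factors gave each of the 3 -0.02. Over left-out replicates, DNAJB1 in R4KO_1 ran from -0.02 to 0.31, HSPB1 in R4KO_2 from -0.07 to 0.04 and HSPB1 in iR4 from -0.01 to 0.05. In R4KO_2 against R4KO_1, HSPA8 ran from -0.28 to 0.04, HSP90AA1 from -0.02 to 0.06 and HSPE1 from -0.001615 to 0.12. Between the inhibitors, HSPA6 ran from -0.24 to 0.16, HSPA1B from -0.14 to 0.06 and HSPH1 from -0.04 to 0.004109. Against Ctrl Vehicle, BAG3 in KO_2 H151 ran from -0.09 to 0.03 and HSPA6 in KO_2 BX_795 from -0.13 to 0.27. HSP90AA1 in iR4 ran from -0.04 to 0.03. In Vehicle against Ctrl Vehicle, HSPA8 ran from -0.02 to 0.03, DNAJB1 from -0.08 to 0.05 and HSP90AA1 from -0.04 to 0.04. For the difference between the experiments, DNAJB1 ran from -0.13 to 0.0002192, HSP90AA1 from -0.05 to 0.03 and BAG3 from -0.002143 to 0.11.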

Other observations

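The mouse tumors, outside the SCC1 set, held 9 orthologues by symbol. In 6 of the 9 the 2 R4KO and 2 Wt libraries overlapped, and in none did both R4KO libraries lie above both Wt libraries (groups did not overlap for 30.7% of all genes). Hspa1a was at 31.1 and 28.5 CPM in R4KO against 35.4 and 32.7 in Wt, Dnajb1 at 141 and 174 against 193 and 199, and Bag3 at 133 and 83.3 against 160 and 148, all 3 lower in both R4KO tumors. Hsph1 was at 121 and 44.2 CPM against 49.4 and 43.3. By edgeR none of the 9 was called (0.0% of genes called; adjusted p = 0.999 for each), and none had an unadjusted p under 0.05.

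Within the iR4 experiment 1 replicate number was high for most members: replicate 3 held the highest value for 9 of 10 members in Vehicle, 10 of 10 in iR4 and 9 of 10 in H151_iR4. In R4KO_2, replicate 3 held the lowest value for 9 of 10. How often these libraries were highest or lowest over all genes is not given here, so the counts are not read as a trait of the members.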
